A study of Homo sapiens with 2 samples.

Results

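The 55 genes described here encode nucleolar factors that build the ribosome: the proteins of small nucleolar ribonucleoproteins (snoRNPs), the processing factors of the small (40S) and large (60S) ribosomal subunits, and general nucleolar proteins. They were taken from the count table by gene symbol, and all 55 were found among its 19927 genes. All 55 also reached the filter of 1 CPM (counts divided by the TMM-scaled library size) on average over both libraries, as did 12353 genes in all. Both groups were cultures of Huh7, a long-established human liver cancer cell line, grown in DMEM with serum. One culture received homochlorcyclizine dihydrochloride, an H1 antihistamine whose dose the labels do not give, for 48 h. The other received DMSO, as the control, for 48 h. With 1 library in each group, all differences are between 2 libraries and have no replicate check.

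Ribosome assembly starts in the nucleolus, where RNA polymerase I transcribes the genes for ribosomal RNA (rDNA). The long precursor RNA is modified by snoRNPs, folded and cut by a large processing complex, and split into a 40S and a 60S particle that mature along separate routes before export to the cytoplasm. Dividing cells spend much of their biosynthetic effort on this pathway, and the transcription factor MYC is a known activator of many of its genes.

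The homochlorcyclizine library held 40791119 counts and the DMSO library 38133894. Of 11 markers of hepatocytes and hepatoma all were present, between 150 and 8540 CPM in the homochlorcyclizine library and between 145 and 11781 CPM in the DMSO library. Their largest differences were ratios of 1.44 for APOB, 0.725 for AFP and 1.34 for both SERPINA1 and TF. Of 11 markers of other cells, KRT5 was at 0 in both libraries, the leukocyte marker PTPRC had 6 against 2 counts, and the list summed to 403 against 367 CPM, nearly all of it from the epithelial EPCAM at 386 against 341 CPM. Of the other cell markers, the endothelial PECAM1 had 229 against 446 counts, a ratio of 0.483 (0.409 to 0.566), CD14 of monocytes 97 against 146 and COL1A1 of fibroblasts 363 against 321. Below the filter, ACTA2 had 8 against 50 counts and COL3A1 5 against 43, both lower in the homochlorcyclizine library. All 16 markers of dividing cells passed the 2-fold size downward, and they summed to 1354 CPM in the homochlorcyclizine library, against 4130 CPM in the DMSO library. The lowest ratios among them were 0.199 for the mitotic kinase PLK1, 0.248 for RRM2, and 0.254 for both TOP2A and BUB1. MKI67, the proliferation marker, stood at 114 against 288 CPM. These markers were lower by more than the ribosome biogenesis genes, with a median log2 ratio of -1.75 against -0.61. Their part in the results below was not tested. In a bulk library, fewer cells expressing a gene and less of its mRNA per cell cannot be told apart.

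As a set, the biogenesis mRNAs were lower in the homochlorcyclizine library by a moderate amount. Together the 55 genes took 0.617% of all counts in the homochlorcyclizine library and 0.963% in the DMSO library, and the ratio of their summed TMM-scaled counts was 0.644, with a 95% counting interval of 0.640 to 0.647. NCL and NPM1 gave 102095 of the 251875 member counts in the homochlorcyclizine library and 150632 of 367388 in the DMSO library, and the other 53 genes summed alone gave a TMM-scaled ratio of 0.649. The median log2 ratio (homochlorcyclizine over DMSO) was -0.61 over the members, with quartiles at -0.79 and -0.47, against -0.01 over all 12353 genes, with quartiles at -0.35 and 0.33. The middle range of the members is thus narrower than that of all genes and lies wholly below its lower quartile.

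Of the 55 members, 52 had a ratio below 1, where 51.1% of all genes did, and for the same number the counting interval lay wholly below 1, where 40% of all genes had such an interval. A gene was counted at a size of 1.5-fold or 2-fold when its ratio reached that size and its interval excluded 1. At least 1.5-fold lower were 29 members, against a background of 14.1% of genes, and none was 1.5-fold higher, also against 14.1%. Only TCOF1 and LYAR were at least 2-fold lower, where the background is 5.1% of genes, and none was 2-fold higher, where it is 5.81%. With TMM scaling the members therefore exceed the background at the 1.5-fold size, while the 2-fold count of 2 in 55 does not. Between log2 ratios of -1 and -0.75 lay 14 members, and between -0.75 and -0.5 another 24. Of all 12353 genes, 518 and 977 lay in these ranges, in that order. NOP10, NOB1 and PPAN were above 1, and for NOB1 and PPAN the interval lay wholly above 1, where 37.8% of all genes had such an interval. No member lay between a log2 ratio of -0.25 and 0, where 2456 of all 12353 genes did.

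**Figure D1:**
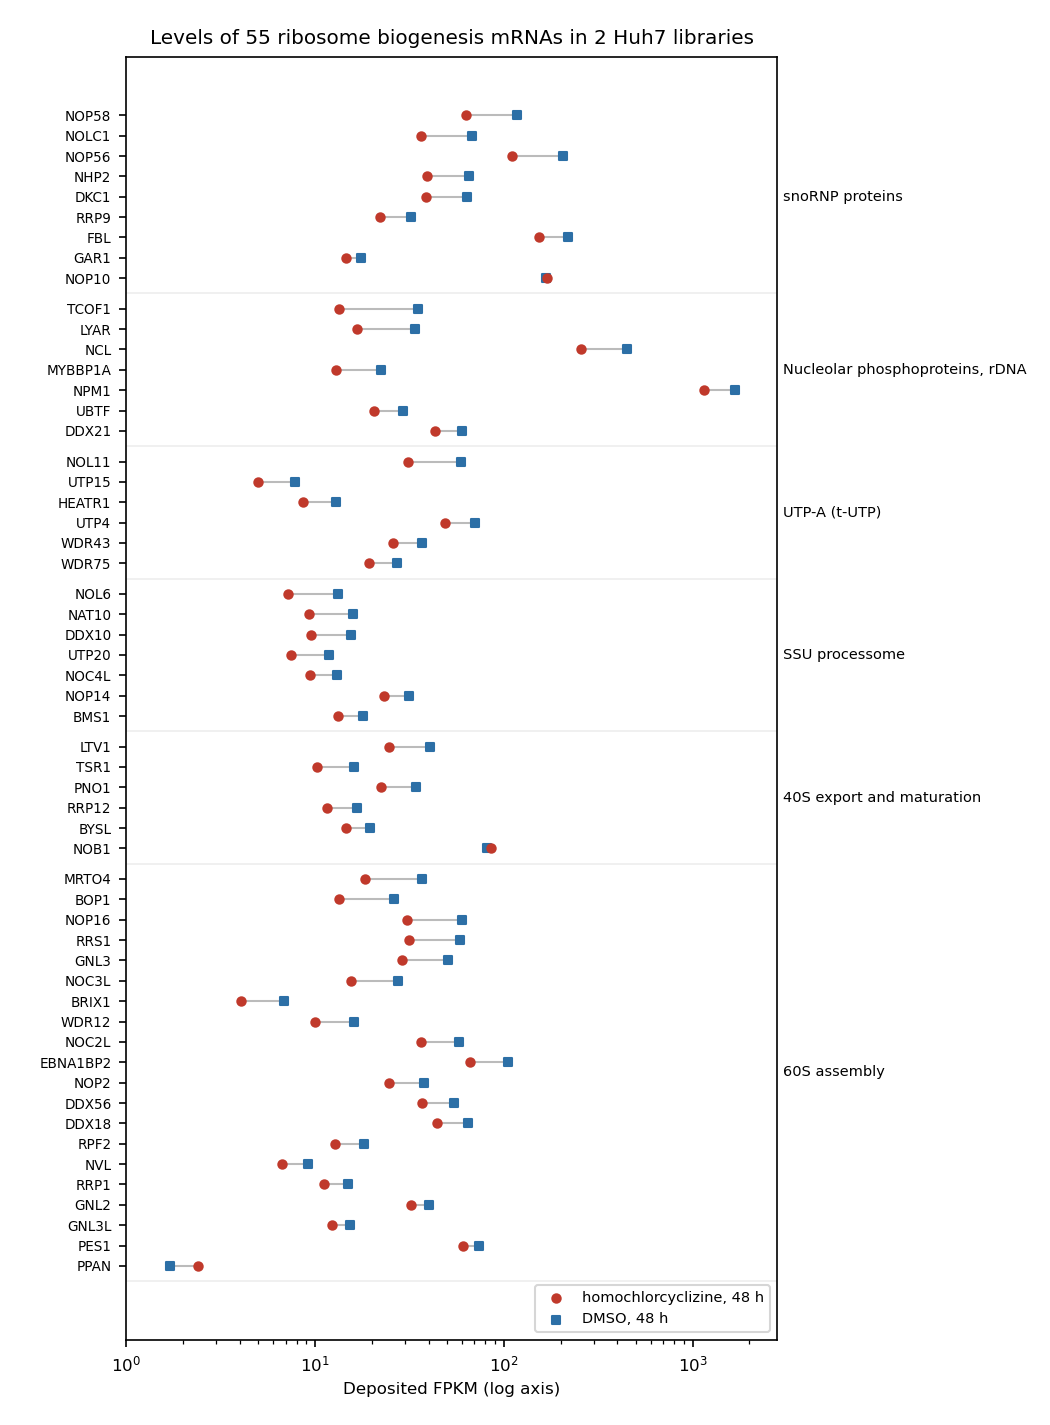
Level of each of the 55 mRNAs as deposited FPKM on a log axis, with the homochlorcyclizine library as red circles and the DMSO library as blue squares, grouped by role and sorted by ratio. In 52 genes the red circle lies to the left, and levels run between 2.39 and 1149 FPKM in the homochlorcyclizine library and between 1.70 and 1682 FPKM in the DMSO library.

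Since the members moved together, their promoters were searched for motifs. RefSeq promoter windows (GRCh38.p14), which run 250 bases before to 50 bases after a start site, matched 47 of the 55 members. An E-box, the palindrome CACGTG, to which MYC with MAX and several other helix-loop-helix factors are known to bind, was present in 23 of the 47 (48.9%). Among all 10134 tested genes with a window, 1286 (12.7%) held it. With 1 window per gene the shares were 40.4% and 10.2%. The other 40S factors listed below held it in 12 of 35 genes, the other 60S factors in 11 of 45, the other snoRNP factors in 0 of 9, the polymerase I genes in 1 of 18 and the ribosomal protein genes in 4 of 61. A second motif, the ETS core GGAAG on either strand, was in 87.2% of members and 81.7% of all genes. Of 25 E-boxes in the members' windows, 22 (88%) started within 50 bases of the annotated start site, against 600 of 1559 (38.5%) in the 14848 windows of all tested genes. Of those before the start site, 6 of 9 in the members and 444 of 1403 in all tested genes lay within 50 bases of it. A gene can have several windows, so a site in overlapping windows is counted in each.

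The 30-base windows around the E-box (capitals) are shown, 5′ to 3′ on the gene's strand, for the 6 members with the lowest ratio among those that carry one and for 3 of the 4 with the highest.
LYAR (chr4:4290068-4290097, minus strand): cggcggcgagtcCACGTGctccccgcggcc
MRTO4 (chr1:19251807-19251836, plus strand): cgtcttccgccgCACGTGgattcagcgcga
NOL6 (chr9:33473894-33473923, minus strand): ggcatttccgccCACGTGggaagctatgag
GNL3 (chr3:52686026-52686055, plus strand): ggcttcagttcaCACGTGgcgccagcggag
NOC3L (chr10:94362903-94362932, minus strand): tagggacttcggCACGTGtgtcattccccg
MYBBP1A (chr17:4555340-4555369, minus strand): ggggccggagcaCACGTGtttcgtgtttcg
GNL2 (chr1:37595917-37595946, minus strand): gtacgtcgtgcaCACGTGgtccggcgtggt
PES1 (chr22:30591880-30591909, minus strand): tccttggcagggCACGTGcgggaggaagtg
GAR1 (chr4:109815781-109815810, plus strand): gggccagaggggCACGTGgcgccggtgagt

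NOP10, the fourth of the highest, carries 2 E-boxes upstream of its start site, and its 250 upstream bases (chr15:34343137-34343386, minus strand) are shown because its mRNA did not share the lower level of the others.
NOP10: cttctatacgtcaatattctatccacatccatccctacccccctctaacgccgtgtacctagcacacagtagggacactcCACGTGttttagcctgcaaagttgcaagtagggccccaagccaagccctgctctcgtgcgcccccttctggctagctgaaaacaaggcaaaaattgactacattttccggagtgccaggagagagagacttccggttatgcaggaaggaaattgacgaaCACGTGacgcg

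Within the 47 members with a window, the median log2 ratio was -0.61 in the 23 with an E-box there and -0.60 in the 24 without one. E-boxes outside the windows were not searched for, so members without one there may still carry one. The mRNA of MYC stood at 278 CPM in the homochlorcyclizine library, against 256 CPM in the DMSO library, a ratio of 1.09. MYC protein and activity were not measured, and a part of MYC in the lower levels was not tested.

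**Figure D2:**
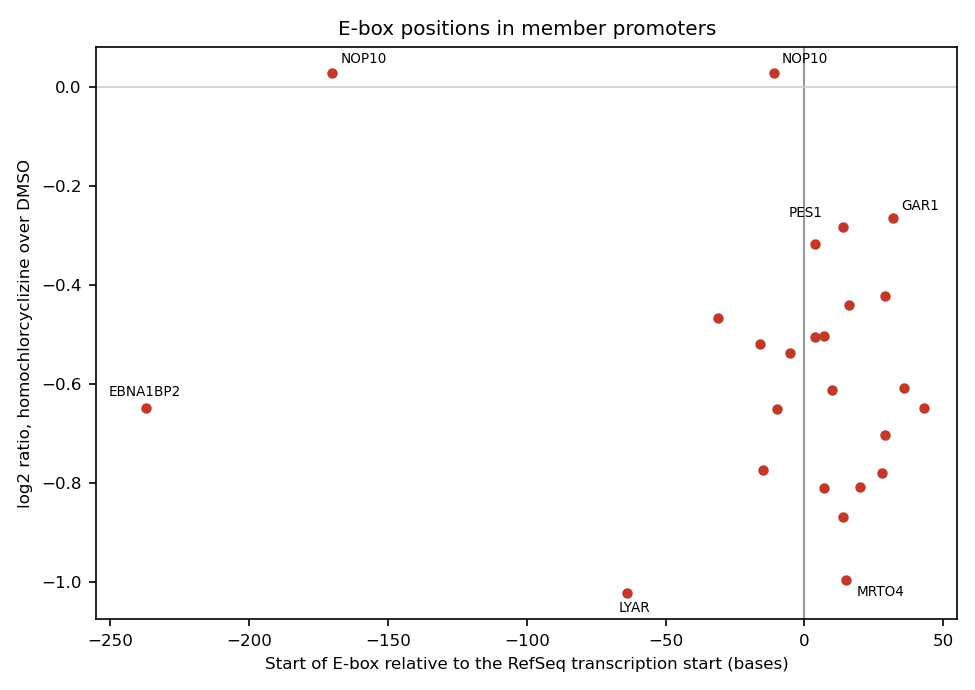
Log2 ratio of each member that carries an E-box against the distance in bases between the motif's first base and the RefSeq start site (vertical line), 1 point per motif. The windows end 50 bases after the start site, and the log2 ratios run between -1.02 for LYAR and 0.03 for NOP10, which has 2 points.

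The proteins of snoRNPs act in particles that modify ribosomal RNA chemically. In this group of 9 members, 8 had a ratio under 1 and 5 of them were lower by 1.5-fold or more; the median log2 ratio was -0.72. NOP56, a scaffold of box C/D snoRNPs, which carry out 2′-O-methylation, had 224 CPM in the homochlorcyclizine library, against 415 CPM in the DMSO library, a ratio of 0.540 (0.526 to 0.554). NOP58, the second scaffold of the same particle, had 125 against 235 CPM, a ratio of 0.533 (0.515 to 0.552). These partner mRNAs kept nearly the same proportion, with NOP56 at 1.77 times the FPKM of NOP58 in the homochlorcyclizine library and 1.75 times in the DMSO library. FBL, the methyltransferase of the particle, was less reduced, at 165 against 234 CPM, a ratio of 0.706 (0.684 to 0.729). RRP9, a protein of the U3 snoRNP needed for the first cuts, had a ratio of 0.689 (0.643 to 0.739).

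The mRNAs for the 4 proteins of the H/ACA particle, which makes pseudouridine, did not differ by the same amount. DKC1, the pseudouridine synthase, had 108 CPM in the homochlorcyclizine library, against 178 CPM in the DMSO library, a ratio of 0.608 (0.585 to 0.632). NHP2 was similar at 30.8 against 51.7 CPM, a ratio of 0.596 (0.555 to 0.640). GAR1 differed less, at 16.9 against 20.3 CPM, a ratio of 0.833 (0.750 to 0.923). The smallest subunit, NOP10, was level at 86.4 against 84.8 CPM, and its interval of 0.972 to 1.07 includes 1. Per length, DKC1 stood at 0.227 times the FPKM of NOP10 in the homochlorcyclizine library and at 0.381 times in the DMSO library. NOLC1, a chaperone of both snoRNP classes that shuttles between the nucleolus and Cajal bodies, had 136 against 253 CPM, a ratio of 0.539 (0.521 to 0.557).

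The genes of general nucleolar proteins and factors of rDNA transcription held both members past 2-fold. All 7 had intervals wholly below 1, and their median log2 ratio was -0.78. TCOF1 encodes treacle, which acts in rDNA transcription and ribosomal RNA modification and is mutated in Treacher Collins syndrome (chromosome 5, 150357697 to 150400293). It had 61.9 CPM in the homochlorcyclizine library, against 163 CPM in the DMSO library, a ratio of 0.380 (0.363 to 0.398), the lowest of all members. Only 2.44% of the 12353 genes had a lower ratio. UBTF, the rDNA-binding factor that works in the same step, had 96.6 against 137 CPM, a ratio of 0.707 (0.678 to 0.737). The level of TCOF1 relative to UBTF was therefore 0.650 in the homochlorcyclizine library and 1.21 in the DMSO library, in FPKM.

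LYAR, a zinc finger protein of the nucleolus associated with pre-ribosomal RNA processing and cell growth, had 27.2 CPM in the homochlorcyclizine library, against 55.2 CPM in the DMSO library. Its ratio of 0.492 has an interval of 0.457 to 0.529, which spans 0.5, so its place past the 2-fold size is within counting error. The count of members past this size was 3 with library totals, 1 with upper quartile scaling and 4 with a GC and length trend removed. The shares of all genes past it were 5.18%, 4.77% and 5.01% in that order. NCL, nucleolin, one of the most abundant nucleolar proteins, had 1013 against 1761 CPM, a ratio of 0.575 (0.568 to 0.582). NPM1, nucleophosmin, a histone chaperone that shapes the outer nucleolus, was the most abundant member, with 1149 FPKM in the homochlorcyclizine library and 1682 FPKM in the DMSO library. Its CPM ratio was 0.686 (0.679 to 0.693), and reads may be shared with its 50 annotated pseudogenes. MYBBP1A, a nucleolar regulator of rDNA transcription, had a ratio of 0.582 and DDX21, an RNA helicase of rDNA transcription and processing, one of 0.723.

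UTP-A, also called t-UTP, is the first module of the small-subunit processing complex to bind the nascent precursor. The mRNAs of all 6 of its measured members had intervals wholly below 1, and 5 of them lay close together, with ratios between 0.644 (UTP15) and 0.718 (WDR75). The exception was NOL11, with 87.8 CPM in the homochlorcyclizine library, against 167 CPM in the DMSO library, a ratio of 0.526 (0.504 to 0.548). Its interval, which covers counting error only, does not meet that of any other UTP-A member. UTP4, WDR43 and HEATR1 had ratios of 0.697, 0.705 and 0.674.

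The 7 other factors of this complex (the small-subunit, or SSU, processome) were also all lower, with 4 of them lower by 1.5-fold or more and a median log2 ratio of -0.65. NOL6 stood at 32.0 CPM in the homochlorcyclizine library, against 58.4 CPM in the DMSO library, a ratio of 0.548 (0.511 to 0.587). NAT10, the acetyltransferase that modifies cytidines of 18S ribosomal RNA, had 36.1 against 61.8 CPM, a ratio of 0.585 (0.547 to 0.624). The helicase DDX10 and the scaffold UTP20 had ratios of 0.617 and 0.637. NOP14 and NOC4L, whose yeast counterparts bind each other, were alike at 0.737 (0.701 to 0.775) and 0.726 (0.652 to 0.807). BMS1, a GTPase of the complex, had a ratio of 0.744, and its 21 annotated pseudogenes may take some of its reads.

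Factors that carry the 40S particle through export and its last cut had a median log2 ratio of -0.56, and 3 of 6 members were lower by 1.5-fold or more. LTV1, a factor of 40S export, had 47.7 CPM in the homochlorcyclizine library, against 77.7 CPM in the DMSO library, a ratio of 0.614 (0.579 to 0.650). TSR1 and PNO1 had ratios of 0.640 and 0.654, RRP12 one of 0.702 and BYSL one of 0.746. NOB1, the nuclease that makes the mature end of 18S ribosomal RNA, went the other way at 143 against 135 CPM, a ratio of 1.06 (1.02 to 1.10). PNO1 is the partner that binds NOB1. Per length, PNO1 stood at 0.259 times NOB1 in the homochlorcyclizine library and at 0.420 times in the DMSO library.

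The 60S factors are the largest group, with 19 of 20 members under a ratio of 1 and 11 lower by 1.5-fold or more, and their log2 ratios had a median of -0.63. MRTO4, a counterpart of the stalk protein P0 that holds its place on the precursor particle, had 41.4 CPM in the homochlorcyclizine library, against 82.5 CPM in the DMSO library. Its ratio of 0.502 (0.472 to 0.532) spans the 2-fold size, which it just missed with TMM scaling and just passed with library totals. NOP16 had 26.1 against 50.6 CPM, a ratio of 0.517 (0.479 to 0.557). RRS1, which with RPF2 loads the 5S ribonucleoprotein onto the precursor, had 54.0 against 101 CPM, a ratio of 0.536 (0.509 to 0.565), while RPF2 had a ratio of 0.700 (0.659 to 0.743). These intervals, which cover counting error only, do not meet. RPF2 stood at 0.406 times the FPKM of RRS1 in the homochlorcyclizine library and at 0.311 times in the DMSO library.

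PES1, BOP1 and WDR12 form the PeBoW complex, which is needed for cutting the 28S precursor, and their mRNAs differed in size of change. BOP1 had 32.5 CPM in the homochlorcyclizine library, against 63.3 CPM in the DMSO library, a ratio of 0.513 (0.480 to 0.549). WDR12 followed at 80.3 against 128 CPM, a ratio of 0.625 (0.598 to 0.653). PES1 was reduced least, at 151 against 184 CPM, a ratio of 0.822 (0.794 to 0.850). No pair of the 3 intervals overlaps, but they cover counting error only and not the spread between cultures. Per length, BOP1 stood at 0.221 times PES1 in the homochlorcyclizine library and at 0.353 times in the DMSO library.

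A similar split was seen between related GTPases. GNL3, nucleostemin, known from stem and tumour cells, had 57.3 CPM in the homochlorcyclizine library, against 100 CPM in the DMSO library, a ratio of 0.571 (0.542 to 0.601). Its paralog GNL3L had 67.5 against 83.5 CPM, a ratio of 0.808 (0.768 to 0.851), and GNL2 one of 0.803 (0.765 to 0.843). NOC3L and NOC2L, whose yeast counterparts escort the precursor through the nucleus, had ratios of 0.571 and 0.633, with NOC2L at 101 against 160 CPM. EBNA1BP2, NOP2 (a methyltransferase of 28S ribosomal RNA) and the helicases DDX56 and DDX18 lay between 0.638 and 0.686. The AAA ATPase NVL and RRP1 were at 0.728 and 0.749. BRIX1 had 265 counts in the homochlorcyclizine library and 415 in the DMSO library, and its wider interval of 0.512 to 0.701 reflects them.

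PPAN, a relative of BRIX1 in the same protein family, had the highest ratio, at 5.80 CPM in the homochlorcyclizine library, against 4.11 CPM in the DMSO library (236 against 157 counts). This is a ratio of 1.41 (1.15 to 1.74). Its FPKM was also the lowest of all members in both libraries. In GENCODE v29, 56.0% of its exon bases lie inside exons of the readthrough gene PPAN-P2RY11, which has 0 counts in both libraries, as has P2RY11. The labels do not say how reads shared by these genes were counted, so the value for PPAN is uncertain.

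**Figure D3:**
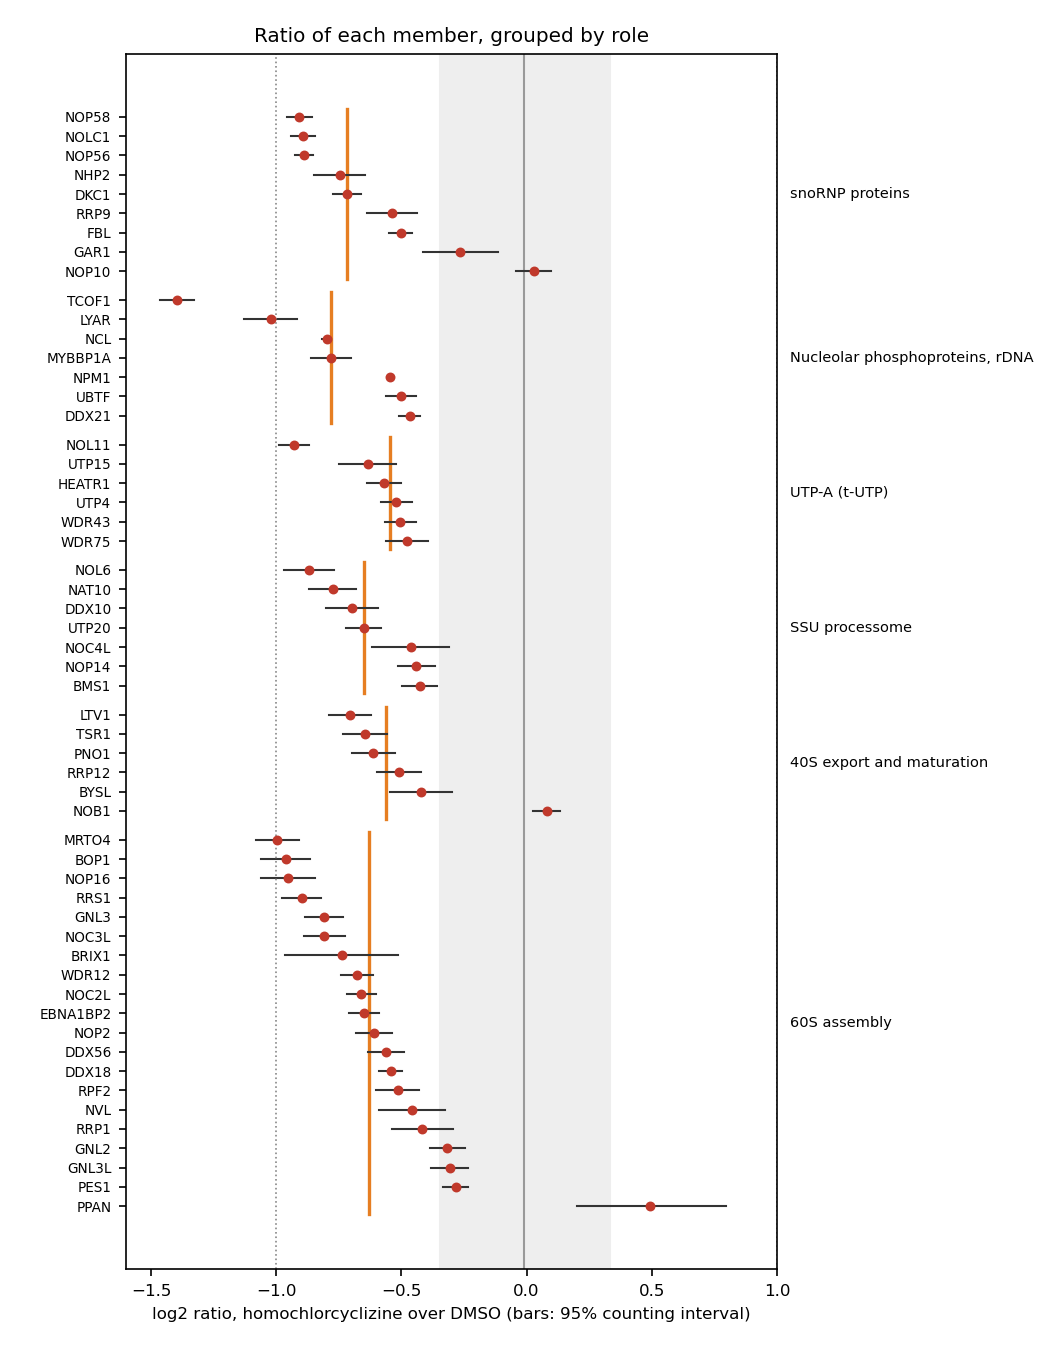
Log2 ratio of each member with its 95% counting interval (black bar), grouped by role, with group medians as orange lines, and the quartiles and median of all 12353 genes as a grey band and line. Medians lie between -0.78 and -0.54 in the 6 role groups, and dotted lines mark 2-fold.

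The medians of other lists of biogenesis and polymerase I genes were also below a ratio of 1, but by less. These lists and the members were chosen with earlier results of these data known, which may have shaped this order. Of all genes past the filter, 51.1% had a ratio below 1 and 14.1% were 1.5-fold lower. At the 2-fold size, 5.1% of all genes were lower and 5.81% higher. Of 43 other 40S factors, 42 had a ratio under 1, 10 were lower by 1.5-fold or more and none passed 2-fold in either direction; the median log2 ratio was -0.38. WDR3 and EMG1, a methyltransferase of 18S ribosomal RNA, had ratios of 0.542 and 0.545, followed by WDR36 at 0.602 and UTP18 at 0.617. Of 50 other 60S factors, 45 were under 1 and 15 lower by 1.5-fold or more, around a median of -0.37. URB2 was 2-fold lower at 0.493, with an interval of 0.452 to 0.538 that spans 0.5, and AFG2A and PAK1IP1 were at 0.516 and 0.545. NOP53, whose yeast counterpart recruits the exosome to the 60S precursor, was 2-fold higher, with 281 CPM in the homochlorcyclizine library, against 137 CPM in the DMSO library, a ratio of 2.05 (1.99 to 2.12).

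Of 13 snoRNP assembly factors and relatives, 12 were below 1 and the median log2 ratio was -0.38. At 1.5-fold 4 were lower, where 14.1% of all genes were, and at 2-fold 1 was, where 5.1% were. This was RUVBL1 at 0.498, with an interval of 0.475 to 0.521 that spans 0.5. Its paired ATPase RUVBL2 had a ratio of 0.591. NAF1, which assembles H/ACA particles, had one of 0.576 and TGS1, which methylates the cap of some snoRNAs, one of 0.664. Of 20 genes of RNA polymerase I and its factors, 17 were under 1, around a median of -0.37. Past 2-fold were 1 of the 20 downward, where 5.1% of all genes were, and none upward, where 5.81% were. POLR1G had 4.10 CPM in the homochlorcyclizine library, against 9.37 CPM in the DMSO library, a ratio of 0.439 (0.362 to 0.528). The subunits POLR2L and POLR1E and the initiation factor TAF1A had ratios between 0.567 and 0.586. Their medians all lie between those of the biogenesis members and of all genes.

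Ribosomal proteins, the building blocks that these factors assemble, did not share the lower levels. Of 77 measured, 28 had a ratio under 1 and 49 over 1. Only 1 was lower by 1.5-fold or more and none higher by that size, where 14.1% of all genes were in each direction. The median log2 ratio was 0.05, or 0.24 with a GC and length trend removed. RPS26 had the lowest ratio, 0.618, RPS2 and RPL35 had ratios of 0.755 and 0.760, and RPL13A one of 1.40. Many of these genes have processed pseudogenes that may share their reads. No test of the difference between the lists can be made with 1 library per group.

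**Figure D4:**
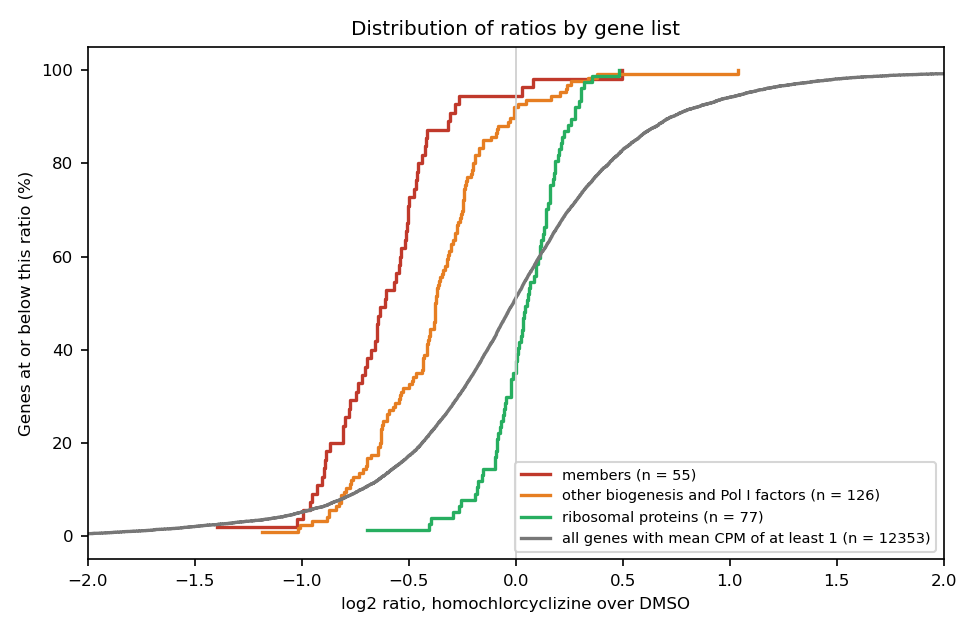
Cumulative share of genes (%) at or below each log2 ratio for the 55 members (red), 126 other biogenesis and polymerase I factors (orange), 77 ribosomal proteins (green) and all 12353 genes (grey). The medians are -0.61, -0.38, 0.05 and -0.01 in that order, so the red curve has the lowest of the 4, while the grey curve has the longest tails.

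Several of the genes also have snoRNA genes within their span. RefSeq places 1 or more snoRNA genes inside the span of 11 of the 55 members (20%), against 427 of 12286 tested genes (3.48%). NOP56 and GNL3 hold 5 each, NOP58 holds 4, and NCL and WDR43 hold 3 each. The only entries in UTP20 and BMS1 are unnamed. Whether the snoRNA genes lie in introns or on the same strand was not checked. The 11 genes had log2 ratios between -0.93 (NOL11) and -0.43 (BMS1), apart from PPAN at 0.49. The snoRNAs themselves were not analysed here.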

How the data were processed

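Poly(A)-selected mRNA of Huh7 cells was sequenced in 2 libraries, 1 per group. The authors deposited raw counts per gene symbol for both libraries and FPKM values (counts divided by library total and gene length) per library. Reads were placed on hg38, per the submitters' processing notes. Names for the aligner, counting program, strand setting and annotation were not given in the sources used here. Ratios of the deposited FPKM values differed from those of the counts per library total by at most 3.13e-05% over 14778 genes, so both hold 1 measurement.

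With edgeR 4.0.16 (R 4.3.3), TMM scaling turned the counts into CPM. Ratios, with a prior count of 1, and exact 95% Clopper-Pearson intervals, conditional on each gene's summed count, were computed in Python 3.11.15 (scipy 1.17.1, pandas 2.3.3, numpy 2.4.6). These intervals cover counting error alone: PCR duplicates are not separate molecules, and the spread between cultures was not measured. No test between conditions can be run on single libraries, so p-values are absent. A mean level of 1 CPM was required, which 12353 of 19927 genes met, and a size rule was applied to all of them. The rule was also run on simulated counts that hold counting error only, so that run cannot show how it performs with spread between cultures. All members may be named; of each other list, the 4 genes with the largest absolute log2 ratio among those past the filter are named by rule, as are MYC and MKI67, and any further gene was chosen after its values were seen. The members and lists were chosen with earlier results of these data known. Promoter sequences and gene coordinates are from RefSeq (GRCh38.p14, the assembly hg38 names), and exon overlaps and GC content from GENCODE v29. Alternatives covered scaling (library totals, DESeq2 1.42.0 size factors, upper quartile), filter, prior count, FPKM and a GC and length trend.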

Additional observations from a re-analysis of the deposited data

How the results depend on the processing

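No paired analysis was possible because each group has 1 library. The members' median log2 ratio lay between -0.62 and -0.56 under all alternatives run. Under each alternative that kept the whole list or set another filter, 52 members had a ratio below 1. The scaling, filter, prior count and FPKM settings shift log2 ratios little or not at all, and no member lay between -0.25 and 0. Across these settings the count of 52 could therefore hardly change. With a GC and length trend removed, the counting interval lay wholly below 1 for 51 members. Under the other alternatives that kept the whole list or set another filter, it did so for 52. The count of members 2-fold lower was 3 with library totals, which add MRTO4, 1 with upper quartile scaling and 4 after removal of a GC and length trend, against 2 as reported. The shares of all genes were 5.18%, 4.77% and 5.01%, against 5.1% as reported. Whether the 2-fold count exceeds the background thus depends on the processing. Between 26 and 29 members were 1.5-fold lower under the same alternatives, where 12.93% to 14.23% of all genes were. Removing that trend shifted the medians of every role group and list. The snoRNP group went to -0.60, the rDNA group to -0.82, UTP-A to -0.49 and the SSU processome group to -0.58. The group of 40S export and maturation went to -0.48 and the 60S group to -0.55. Among the other lists, the 40S factors went to -0.34, the 60S factors to -0.42 and the snoRNP factors to -0.27. The polymerase I genes went to -0.35 and the ribosomal proteins to 0.24. The cause was not tested. A filter of 5 CPM left out PPAN. With 12 members left out for many pseudogenes or shared exons, an alternative chosen after seeing the data, the median was -0.56 over 43, with 2 members 2-fold lower, 21 members 1.5-fold lower and 41 below a ratio of 1. Ratios of single members were checked only under library totals, DESeq2 size factors and a prior count of 5, and none moved beyond its counting interval. These settings gave members' medians of -0.618, -0.606 and -0.611, against -0.613 in the main setting, so this check could hardly fail. It was not run under upper quartile scaling or with the trend removed, where the medians were -0.582 and -0.570.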

Other observations

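Across the 55 members, the level (mean CPM) and the log2 ratio were nearly unrelated, with a Spearman's rho of -0.08 across genes of the same pair of libraries, which are not independent replicates. Exons of other genes overlap some members. In GENCODE v29, 54.4% of the exon bases of NOP2 and 27.7% of those of LTV1 lie inside exons of another gene on the same strand. For NHP2, HEATR1 and TSR1, 27.4%, 23.2% and 20.7% lie inside exons of a gene on the opposite strand. With no strand setting named in the labels, reads of these overlaps cannot be told apart.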
